A study of Sus scrofa with 13 samples.

Results

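Long noncoding RNAs (lncRNAs) that were higher in adult than in newborn pig skeletal muscle were picked out of a catalogue of 10813 lncRNAs. A lncRNA was a member when it reached at least 0.5 RPKM in longissimus dorsi at day 240 and when its day 0 value was at most 0.25 of the day 240 value, that is, at least 4-fold lower. RPKM corrects read numbers for the length of the transcript and the size of the library, so levels of different lncRNAs can be compared per length. In total, 92 lncRNAs met the rule. They were 28.8% of the 319 lncRNAs with at least 0.5 RPKM at day 240 and 0.851% of all those listed. The remaining 227 lncRNAs with at least 0.5 RPKM at day 240 served for comparison and are called the other muscle lncRNAs. The same rule with the days swapped found 248 of 519 lncRNAs (47.8%), and the rule as given found 325 of 7434 Ensembl genes (4.37%).

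Total RNA depleted of ribosomal RNA was sequenced in 13 libraries. Of these, 11 were single tissues of Guizhou mini-pigs. Longissimus dorsi, the long muscle of the back, was taken at day 0, day 30 and day 240 after birth, and adipose tissue, heart, kidney, liver, lung, ovary, spleen and testis at 240 days. Equal amounts of RNA from multiple breeds and multiple time points were combined in 2 further libraries, the tissue mixture (multiple tissues) and the muscle mixture (longissimus dorsi). No treatment or genetic change was given for any group. How many animals stood behind a library is not stated in the labels. Strand-specific libraries were made with a SMART or a dUTP protocol, and which of them was used for which library is not stated either. Each stage or organ had 1 library, which leaves differences without a replicate check, and no test between stages or organs was made. Intervals given here are exact 95% intervals of the read numbers and cover counting error only.

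LncRNAs are transcripts without a long open reading frame, and many are made at low levels and in few cell types. Some act in the nucleus on the transcription of genes, and others bind proteins or microRNAs in the cytoplasm. After birth, skeletal muscle stops forming new fibres and grows by enlarging those it has. Its fibres exchange embryonic and neonatal isoforms of contractile proteins for adult ones, and in a back muscle such as longissimus dorsi most fibres become fast and glycolytic. No function has been assigned to the members in the sources used here, so they are named by their assembly identifiers.

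The values that selected the members are given as a description. The members had a median of 0.018 RPKM at day 0 and 0.851 RPKM at day 240, with a range from 0.510 to 8.68 RPKM at day 240. At day 0, 45 of the 92 members were listed at 0. Summed over the members, the level was 13.3 RPKM at day 0 and 139 RPKM at day 240. The 10 highest members held 40.5% of the latter sum. In reads, the members took 0.245% of all lncRNA reads at day 0 and 2.45% at day 240. Thus, they were a small part of the lncRNA output of adult muscle. These shares depend on an abundant lncRNA outside the members. Of the lncRNA reads, 1 of the other muscle lncRNAs held 146079 of 213808 at day 0, and 1 held 115100 of 173712 at day 240. Just inside the limit of 0.5 RPKM were TCONS_00794217 with 0.510 RPKM and TCONS_00450550 with 0.521 RPKM at day 240. Just outside were TCONS_00374542 with 0.493 RPKM and TCONS_00380330 with 0.489 RPKM. At the limit for day 0, TCONS_00409002 and TCONS_00463062 were inside with 0.243 and 0.240 of their day 240 level. TCONS_00814378 and TCONS_00353028 were outside, both with 0.261.

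Few reads stood behind many members. At day 240 they had a median of 16 reads with a range from 4 to 690, against a median of 33 reads for the other muscle lncRNAs. Under 10 reads were found for 29 members, 10 to 19 reads for 25 and at least 20 reads for 38. The members were also shorter, with a median length of 483.5 nt (203 to 2855 nt) against 638 nt. For 26 of the 92 members, the interval of the day 0 to day 240 ratio lay wholly at or under 0.25. The other 66 members met the rule by their point value, and their interval reached above that limit. The read numbers of TCONS_00243397, TCONS_00377259, TCONS_00654865 and TCONS_00224113, which were above 0 in fewer than 4 libraries, are lower bounds.

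The highest member was TCONS_00177241. It had 0 RPKM at day 0, 3.65 RPKM at day 30 and 8.68 RPKM (7.39 to 10.1, 159 reads) at day 240. Measured against the level that 3 reads would give at day 0, its day 240 level was 58.0-fold higher by point value. The interval of its day 0 to day 240 ratio reached up to 0.0214. TCONS_00834709 had 1.71, 4.32 and 7.56 RPKM at the 3 stages, so that day 240 was 4.43-fold above day 0. TCONS_00842621 had 0.769, 2.13 and 7.45 RPKM. Its 690 reads at day 240 were the most of any member, and they put day 240 at 9.69-fold above day 0. In these 3 lncRNAs the level was higher at each later stage, and the counting intervals of the 3 stages did not overlap on the deposited scale. With libraries scaled to the same total, day 240 lay only 0.13 (log2) above day 30 in TCONS_00834709, against 0.79 as deposited. In TCONS_00177241 it was 0.57 against 1.23, and in TCONS_00842621 1.10 against 1.76.

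The next members took different courses. TCONS_00545140 had 0.301 RPKM at day 0, 0 at day 30 and 6.81 RPKM (5.22 to 8.73, 62 reads) at day 240. TCONS_00353003 had 1.18, 3.85 and 6.38 RPKM. TCONS_00323173 had 1.01, 6.07 and 4.42 RPKM and thus was highest at day 30. So the member seen late (TCONS_00545140) and the member seen early (TCONS_00323173) were both among the 10 highest at day 240. TCONS_00534241 had 0.444, 3.08 and 4.25 RPKM. TCONS_00188556 had 0, 0.240 and 3.96 RPKM. The former had most of its day 240 level at day 30, whereas the latter had little of it. TCONS_00306897 had 0.543, 1.39 and 3.78 RPKM, and TCONS_00556042 had 0.651, 0.381 and 2.92 RPKM.

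**Figure D1:**
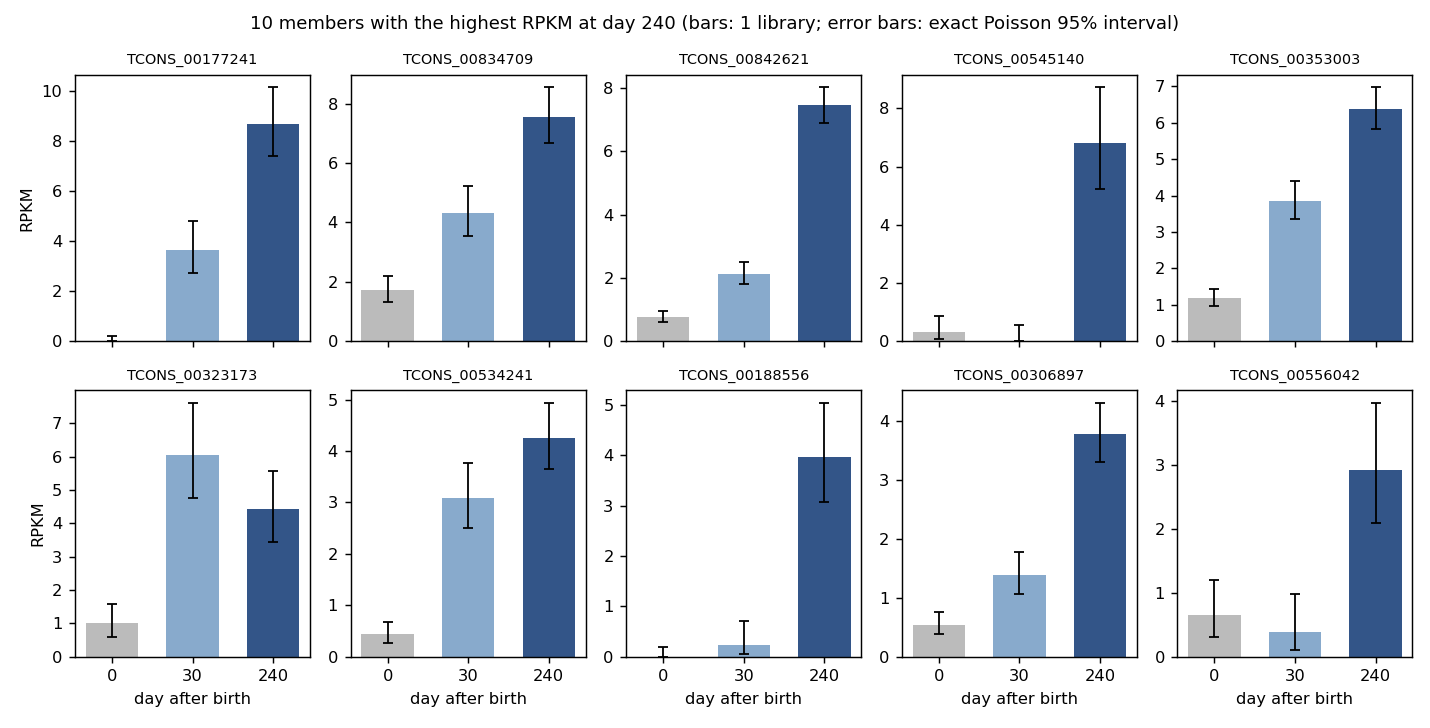
RPKM of the 10 members with the highest level at day 240, in longissimus dorsi at day 0, day 30 and day 240, with 1 library per bar and exact Poisson 95% intervals as error bars. Each panel has its own vertical axis starting at 0. TCONS_00323173 is highest at day 30, and TCONS_00545140 is at 0 at day 30.

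The rule did not use the day 30 library. However, members were chosen for a low day 0 and a high day 240 value in single libraries, so the place of day 30 between them is in part fixed by that choice and is given as a description. At day 30 the median of the members was 0.188 RPKM and their sum 60.5 RPKM, between the sums of day 0 and day 240. With libraries scaled to the same total, the 3 sums were 13.98, 96.7 and 139 RPKM. At day 30, 50 of the 92 members were above their day 0 value and 42 were at or below it. In 38 members the day 30 value lay between those of the outer stages. At or above their day 240 level were 12 members (13.04%), against 25.1% of the other muscle lncRNAs. A total of 31 members were listed at 0 at day 30 (33.7%, against 7.49% of the others), and 23 of them were also at 0 at day 0. For 28 of these 31, the day 240 level would have given at least 3 reads at the total of day 30 used in RPKM. All members had at least 4 reads at day 240, so this number was nearly fixed in advance.

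Differences were taken as log2(RPKM + 0.1), a scale on which differences of low values come out too small, and counted from 2-fold on. From day 0 to day 30, 43 of the 92 members (46.7%) were at least 2-fold higher. The same was found for 6.61% of the other muscle lncRNAs and for 32.1% of all lncRNAs compared. From day 30 to day 240, 64 members (69.6%) were at least 2-fold higher, against 39.2% of the other muscle lncRNAs and 29.2% of all lncRNAs compared. Within 2-fold of the day 240 level at day 30 were 23 members. Both shares lean on the choice of members, because each comparison shares a library with the rule. The median difference of the members was 0.73 (log2) from day 0 to day 30, and day 30 lay 2.17 below day 240, written as a median of -2.17. For the other muscle lncRNAs the medians were -1.005 and -0.69.

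By counting error alone, the day 30 level was below the day 240 level in 56 members, that is, the interval of the ratio lay wholly under 1. This was so for 47.1% of the other muscle lncRNAs. It lay wholly over 1 in 3 members and in 11.9% of the others. In 33 members the interval held 1, so a difference was not detectable at this depth. The day 30 level was above the day 0 level in 30 members and below it in 0, against 10.6% and 53.3% of the other muscle lncRNAs. Members with little signal at day 0 could hardly fall below it. Among the 38 members with at least 20 reads at day 240, 26 were above day 0 at day 30 and 25 were at least 2-fold higher at day 240 than at day 30. Muscle at day 30 was the library with the fewest reads counted on features (3620348, against 7288042 at day 0 and 7154465 at day 240). Its part in the members listed at 0 was not tested, because the 28 of 31 given before rest on the total reads in RPKM.

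Of the members that came late, TCONS_00545140 showed the widest gap, from 0 reads at day 30 to 62 reads at day 240. TCONS_00492840 was at 0 at day 0 and day 30 and had 1.55 RPKM (27 reads) at day 240. TCONS_00424575 had 0.259, 0.063 and 2.41 RPKM, and the ratio of day 30 to day 240 was 0.026 (0.00065 to 0.153). TCONS_00299835 had 0.0994, 0 and 1.14 RPKM. These 4 had hardly any reads at day 30. TCONS_00822253, with 0, 0 and 2.05 RPKM, was of this kind too, although only 14 reads stood behind the last value. TCONS_00724869 had 0, 0.381 and 1.81 RPKM.

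Other members peaked at day 30. At least 2-fold above day 240 at this stage were TCONS_00070086, TCONS_00593624, TCONS_00781668, TCONS_00134084 and TCONS_00733430. Of these, TCONS_00593624 and TCONS_00134084 were named after their values were seen. TCONS_00733430 had 0, 3.39 and 0.762 RPKM, with a ratio of day 30 to day 240 of 4.45 (2.06 to 10.7). TCONS_00781668 had 0, 3.55 and 1.17 RPKM, with a ratio of 3.03 (1.44 to 6.83). TCONS_00070086 had 0.0598, 3.85 and 1.51 RPKM, with a ratio of 2.55 (1.51 to 4.43). In these 3 the interval lay wholly over 1, so they had already passed their highest sampled level before day 240. For TCONS_00323173 the ratio was 1.37 (0.979 to 1.93), which does not separate the stages on the deposited scale. With libraries scaled to the same total, its day 240 minus day 30 difference was -1.12 (log2), against -0.45 as deposited. TCONS_00374542 and TCONS_00380330, just outside the rule, had 3.04 and 1.63 RPKM at day 30 and thus were above their day 240 level in the same way.

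**Figure D2:**
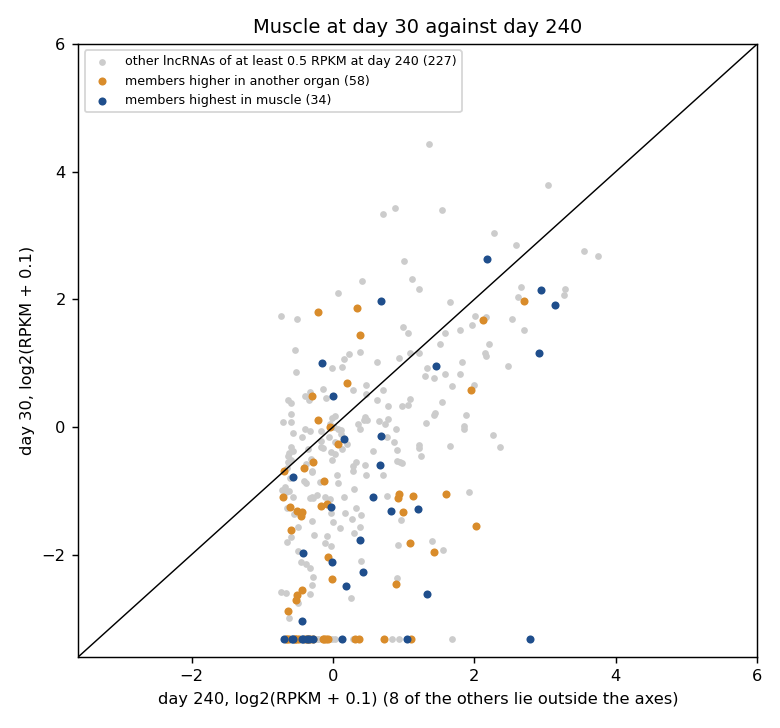
Level of each lncRNA in longissimus dorsi at day 30 against day 240, as log2(RPKM + 0.1), 1 library per stage, with a line of equality. Blue and orange points are the 92 members, split by whether muscle was their highest organ, and grey points are the other muscle lncRNAs. Of the members, 12 lie on or above the line, and the 31 listed at 0 at day 30 form the bottom row.

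On the deposited scale, the members were no single muscle group across the 9 organs at 240 days. Muscle was the highest organ for 34 of the 92 members (37.0%), and another organ was higher for 58. These are ranks of point values that take no account of counting error. In TCONS_00822253, TCONS_00492840 and TCONS_00299835, counted as higher in testis, the counting intervals of muscle and testis overlapped. Among the other muscle lncRNAs, muscle was the highest organ for 24.2%, and among all lncRNAs with at least 0.5 RPKM in any organ it was 1.65%. The highest organ was testis for 14 members, ovary for 12, lung for 11, kidney for 10, heart for 5, liver for 3, spleen for 3 and adipose tissue for 0. These counts depend on the scaling. Muscle was highest for 37.8% of 90 lncRNAs with the same total, and for 64.1% of 117 with the median ratio. Of the reads in RPKM, 21.9% were counted on features in muscle at day 240, 11.6% in spleen and 38.0% in ovary. Its part in the ranks was not tested. Levels of at least 0.5 RPKM were found in no other organ for 25 members (27.2%), in 1 to 3 other organs for 33 and in 4 to 7 for 32. Only TCONS_00781668 and TCONS_00363100 reached it in all 8, the latter named after its value was seen. By contrast, 58 of the 227 other muscle lncRNAs did so and 22 had no other organ at this level. Muscle at day 240 belonged to the rule, but the 8 other organs did not. The share of 1.65% is therefore low by construction, because most lncRNAs in it did not have to reach 0.5 RPKM in muscle.

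Tau measures how far expression is restricted, from 0 for even levels over the 9 organs to 1 for a single organ. The members had a median tau of 0.626 and the other muscle lncRNAs 0.411. Tau was at least 0.9 for 14 members and for 17 of the 227 others. Low levels with few reads also raise tau. Among those with at least 20 reads at day 240, the medians were 0.653 for 38 members and 0.388 for 154 others. Summed over the members, the level in muscle at day 240 (139 RPKM) was close to that of kidney (134 RPKM) and ovary (130 RPKM) and above that of lung (112 RPKM), testis (105 RPKM), heart (57.7 RPKM), spleen (55.4 RPKM), liver (54.6 RPKM) and adipose tissue (43.8 RPKM). Muscle at day 240 is the library in which the members were chosen. The order of these sums depended on the scaling. With the same total, lung (179 RPKM) and kidney (173 RPKM) were above muscle and ovary was at 79.6 RPKM. With the median ratio, muscle was the highest, followed by liver (61.2 RPKM) and kidney (58.3 RPKM), and ovary was the lowest (24.3 RPKM). The kidney sum rests in part on TCONS_00353003, which had 34.5 RPKM there.

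**Figure D3:**
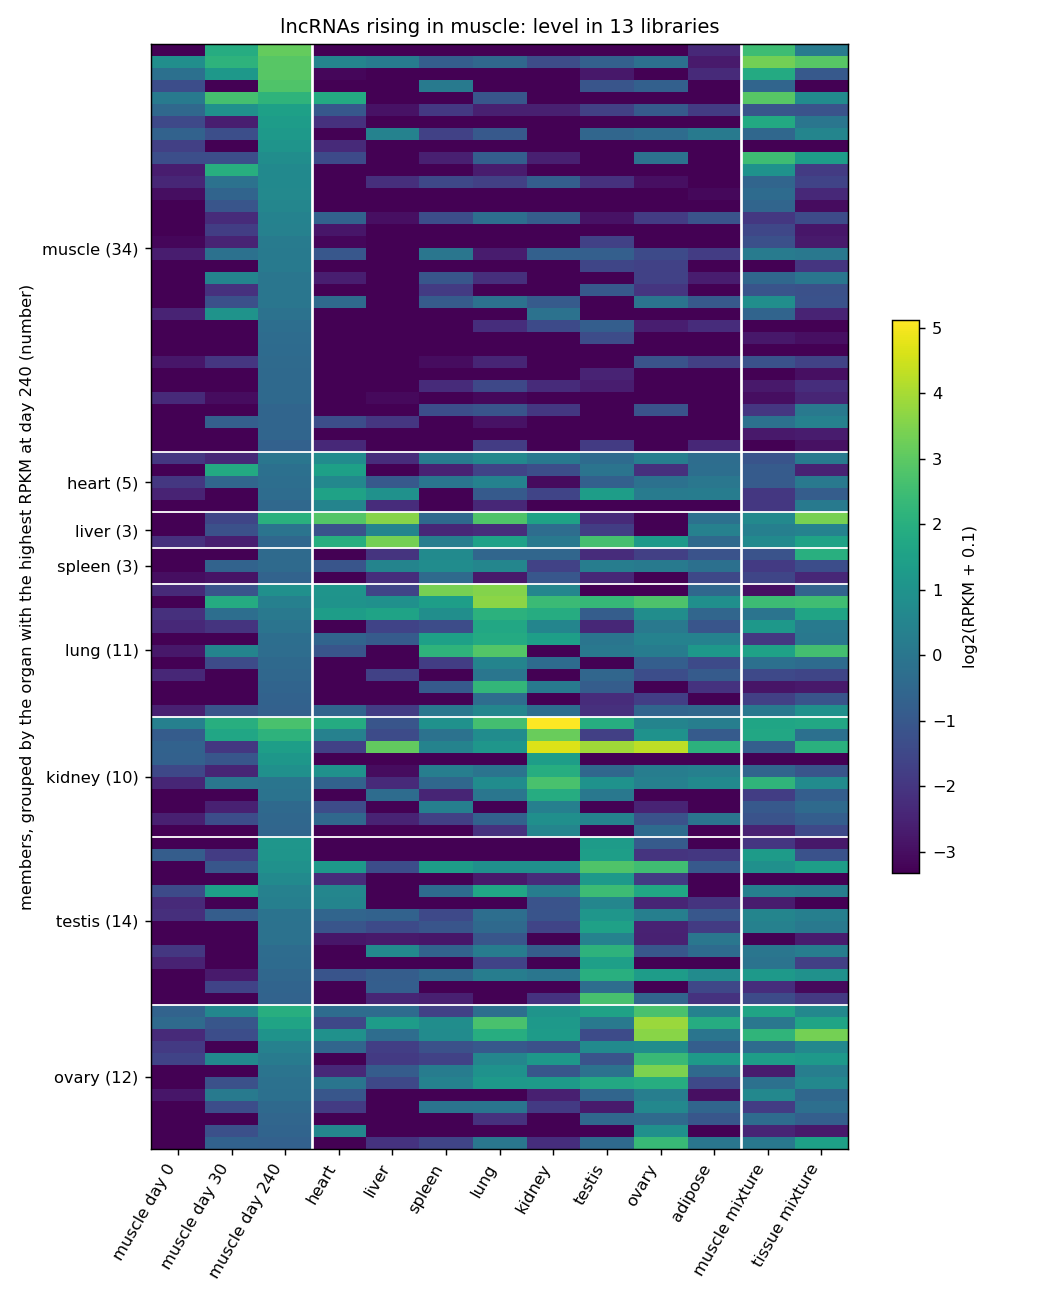
Levels of the 92 members, 1 per row, in the 13 libraries, as log2(RPKM + 0.1). Rows are grouped by the organ with the highest level at day 240, with the number of members in brackets, and within a group by the day 240 level in muscle. The 34 members highest in muscle are mostly dark in the 8 other organs, whereas the 58 others are seen in several.

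A set of 15 members (16.3%) was at least 4-fold higher in muscle than in every other organ on the log2(RPKM + 0.1) scale. This was found for 9.25% of the other muscle lncRNAs and 0.665% of all lncRNAs with at least 0.5 RPKM in any organ. The last share is low by construction, because only lncRNAs with at least 0.5 RPKM in muscle could be counted in it. The other muscle lncRNAs are the like comparison. Of the 15, 13 had no other organ with at least 0.5 RPKM. TCONS_00177241 was listed at 0 in 7 of the 8 organs and had 0.0944 RPKM in adipose tissue. TCONS_00842621 had 0.0098 RPKM in heart, 0.0457 RPKM in testis and 0.103 RPKM in adipose tissue, and 0 in the others. Both were thus seen at high levels in muscle alone among these organs. TCONS_00687869 was at 0 in all 8 organs, with 0, 0.369 and 1.38 RPKM in muscle at the 3 stages. TCONS_00232901 had 0.0121 RPKM in adipose tissue as its only value above 0, against 0.0256, 0.561 and 1.49 RPKM in muscle. TCONS_00424575 was seen only in heart besides muscle, with 0.129 RPKM, and TCONS_00070086 only in lung, with 0.0578 RPKM. On the log2 scale, the distance of muscle from the highest other organ was 5.50 for TCONS_00177241, 5.22 for TCONS_00842621 and between 3.35 and 3.89 for these 4.

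The rest of the 15 were less clear-cut. TCONS_00834709 had from 0.0513 to 1.29 RPKM in the 8 organs, with heart the highest. TCONS_00545140 reached 0.985 RPKM in spleen. TCONS_00299809, with 2.65 RPKM in muscle, had from 0.0341 to 0.420 RPKM elsewhere. These 3 were expressed in several organs at lower levels than in muscle. With libraries scaled to the same total, 2 of them fell under 4-fold. The distance from the highest other organ was then 1.79 (log2) for TCONS_00834709, against 2.46 as deposited. For TCONS_00545140 it was 1.66 against 2.67. The share at least 4-fold over every other organ was 16.7% of 90 with that scaling. TCONS_00243397, TCONS_00501626, TCONS_00377259, TCONS_00654865, TCONS_00370868 and TCONS_00224113 had at most 0.0996 RPKM in any other organ and between 0.571 and 1.98 RPKM in muscle at day 240. Of these 6, all but TCONS_00501626 and TCONS_00370868 had under 20 reads. TCONS_00299809 and these 6 were named after their values were seen, as the rest of the set of 15.

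In the 58 members with a higher organ, that organ was at least 4-fold over muscle in 21 (22.8% of all members, against 79 of the 227 other muscle lncRNAs). TCONS_00353003 had 34.5 RPKM in kidney, 5.99 RPKM in lung and 6.38 RPKM in muscle. TCONS_00141913 had 25.2 RPKM in kidney, 19.4 RPKM in ovary, 14.995 RPKM in testis and 4.16 RPKM in adipose tissue, but 2.58 RPKM in muscle. It was the highest member in testis, ovary and adipose tissue. TCONS_00188556 had 12.0 RPKM in liver, 7.07 RPKM in heart and 6.83 RPKM in lung, against 3.96 RPKM in muscle, and was the highest member in liver and heart. TCONS_00781668 reached 12.5 RPKM in lung, and TCONS_00799949 had 11.7 RPKM in lung and 10.3 RPKM in spleen, the highest of the members there. Muscle levels of the former were 1.17 RPKM and of the latter 1.78 RPKM at day 240. TCONS_00556042 had 14.3 RPKM in ovary and TCONS_00178382 had 10.8 RPKM in ovary, with 2.92 and 0.854 RPKM in muscle. Muscle thus was below at least 1 organ in each of these lncRNAs on the deposited scale, and in TCONS_00353003 below kidney only.

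Heart is the other striated muscle of the set, and 30 members had at least 0.5 RPKM there. Liver had the fewest members at this level with 16, and lung the most with 41. Heart was the highest organ for TCONS_00656600, TCONS_00733430, TCONS_00437649, TCONS_00414492 and TCONS_00439447, of which all but TCONS_00733430 were named after their values were seen. TCONS_00323173 had 3.45 RPKM in heart, 4.42 RPKM in muscle, 0.380 RPKM in lung and 0 in the other 6 organs. It was therefore seen in the striated muscles with hardly any signal elsewhere. TCONS_00733430 had 2.69 RPKM in heart and 0.762 RPKM in muscle at day 240. Liver was highest for TCONS_00188556, TCONS_00551223 and TCONS_00363100, and spleen for TCONS_00619302, TCONS_00430068 and TCONS_00529096. TCONS_00551223, TCONS_00430068 and TCONS_00529096 were named after their values were seen.

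**Figure D4:**
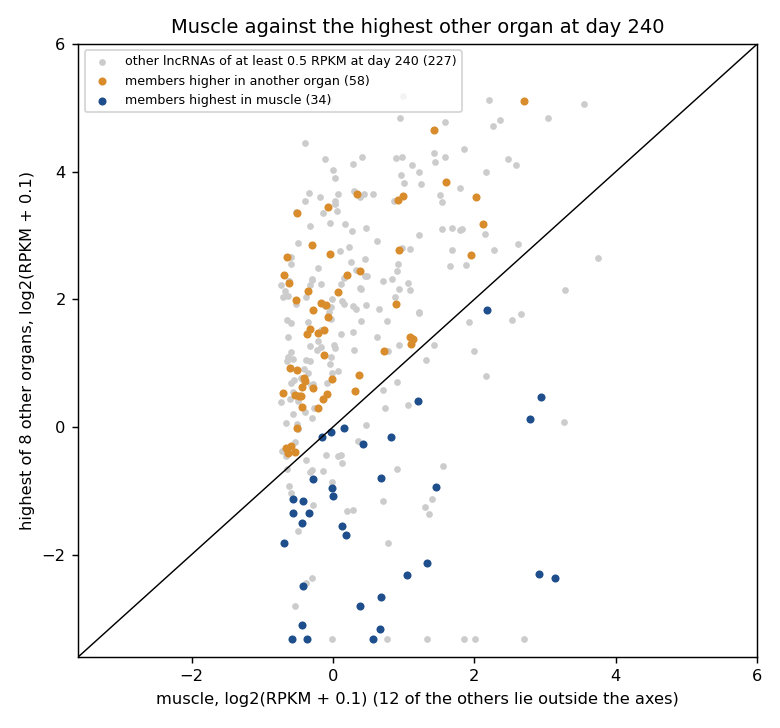
Level in muscle at day 240 against the highest of the 8 other organs, as log2(RPKM + 0.1), 1 library per organ, with a line of equality. The 34 blue members lie below the line and the 58 orange ones on or above it, and grey points are the other muscle lncRNAs. TCONS_00177241 and TCONS_00842621 are the 2 blue points farthest below the line.

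The mixtures were not used by the rule and hold RNA of other breeds. However, the other muscle lncRNAs are those that failed the limit for day 0. They all had at least 0.159 RPKM in this second muscle library, where the members had a median of 0.018 RPKM. A member could thus rest on a single muscle library. The contrasts of members and others in the mixtures are therefore in part fixed by the choice, and are given as a description. Of the 92 members, 83 were above 0 in the muscle mixture and 85 in the tissue mixture. At least 0.5 RPKM was reached by 47 members (51.1%) in the muscle mixture, against 87.7% of the other muscle lncRNAs, and by 46 members in the tissue mixture. The muscle mixture was deeper (63015726 reads in RPKM) than muscle at day 240 (32641450 reads). Compared with muscle at day 240, the muscle mixture was at or above that level in 27 members and at most 0.25 of it in 29. For the other muscle lncRNAs these numbers were 154 and 24 of 227. The mixture holds several time points, whose shares are not given, and so a lower level in it and a lower level in other breeds cannot be told apart.

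At least 2-fold higher in the muscle mixture than in the tissue mixture were 21 members (22.8%), against 33% of the other muscle lncRNAs and 12.6% of all lncRNAs compared. At least 2-fold higher in the tissue mixture were 20 members (21.7%), against 10.1% and 33.4%. The 2 directions were thus about equally frequent among the members, and the median difference was 0. By counting error, the muscle mixture was above the tissue mixture in 25 members and below it in 24, against 52% and 22.9% of the other muscle lncRNAs. The counts were also taken by organ profile. Of the 34 members highest in muscle, 14 were at least 2-fold higher in the muscle mixture and 3 in the tissue mixture, against 40 and 1 of the 55 other muscle lncRNAs of this profile. Of the 58 members with a higher organ, 7 were higher in the muscle mixture and 17 in the tissue mixture, against 35 and 22 of 172. Of the 15 members with at least 4-fold more in muscle than in any other organ, 8 were higher in the muscle mixture and 0 in the tissue mixture, against 18 and 0 of 21.

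TCONS_00842621 had 3.46 RPKM in the muscle mixture and 0.417 RPKM in the tissue mixture, a ratio of 8.31 (6.86 to 10.1). TCONS_00070086 had 1.86 and 0.178 RPKM, a ratio of 10.51 (5.15 to 24.2). TCONS_00545140 had 0.569 RPKM in the muscle mixture and 0 in the tissue mixture. These 3 showed the largest differences in favour of muscle. TCONS_00177241 had 5.52 and 1.04 RPKM, a ratio of 5.32 (3.99 to 7.19), and TCONS_00323173 had 7.41 and 1.59 RPKM, a ratio of 4.66 (3.62 to 6.04). The level of TCONS_00834709 was 9.82 RPKM in the muscle mixture and 7.56 RPKM in the tissue mixture, a ratio of 1.299 (1.17 to 1.44). It was the highest member in the muscle mixture, but it was nearly as high in the other.

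In the opposite direction, TCONS_00619302 had 0.343 RPKM in the muscle mixture and 3.92 RPKM in the tissue mixture, a ratio of 0.0877 (0.0279 to 0.212). TCONS_00178382 had 0.0553 and 1.13 RPKM, a ratio of 0.0491 (0.00121 to 0.292). TCONS_00141913 had 0.486 and 3.96 RPKM, a ratio of 0.123 (0.0517 to 0.2504). All 3 were higher in an organ other than muscle at day 240. TCONS_00188556 had 1.46 and 10.3 RPKM, the latter being the highest value of a member in the tissue mixture.

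In the muscle mixture, 9 members (9.78%) were listed at 0, against 0.881% of the other muscle lncRNAs. For 9 of these 9, the day 240 level would have given at least 3 reads there. This was fixed in advance, because every member had at least 4 reads at day 240 and the muscle mixture was deeper. It therefore does not separate absence from low signal. In both mixtures, TCONS_00409002, TCONS_00243397, TCONS_00492840, TCONS_00001775 and TCONS_00377259 were at 0. TCONS_00001775 was named after its value was seen. TCONS_00492840 had 1.55 RPKM in muscle at day 240 and 2.19 RPKM in testis. TCONS_00243397 had 1.98 RPKM in muscle at day 240 and TCONS_00409002 had 2.10 RPKM. These lncRNAs were found at day 240 in the Guizhou library but in neither mixture.

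**Figure D5:**
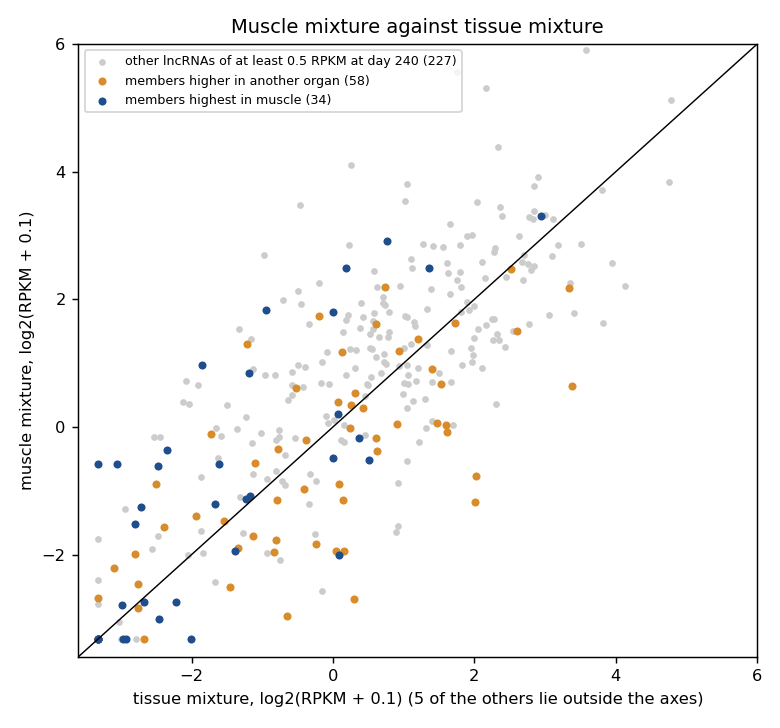
Level of each lncRNA in the muscle mixture against the tissue mixture, as log2(RPKM + 0.1), 1 library each, with a line of equality. Blue points are the 34 members highest in muscle at day 240, orange points the 58 members with a higher organ and grey points the other muscle lncRNAs. At least 2-fold above the line are 14 blue and 7 orange points, and at least 2-fold below it 3 blue and 17 orange points.

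Protein-coding genes of the same libraries describe the muscle in which the members were measured. Gene symbols could be paired with 11654 Ensembl identifiers, so each list is only partly covered. From day 0 to day 240, 10.4% of the 12594 Ensembl genes compared were at least 2-fold higher and 36.8% at least 2-fold lower, with a median difference of -0.65 (log2). Of all lncRNAs compared, 25.4% were higher and 45.2% lower.

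Genes of fast fibres and of glycolysis were higher at day 240. Of 8 paired genes of the fast contractile list, 6 were at least 2-fold higher and 0 lower, with a median of 1.71 (log2). TNNC2, the fast troponin C, had 4717, 2877 and 10378 RPKM at the 3 stages, and PYGM, the muscle glycogen phosphorylase, had 139, 435 and 689 RPKM. Of 10 paired genes of glycolysis, 8 were higher and 0 lower, with a median of 1.55. LDHA, which makes lactate from pyruvate, had 214, 490 and 1301 RPKM. GAPDH, an enzyme of the middle of the pathway, had 1532, 2466 and 4325 RPKM. Of 5 paired genes of the slow contractile list, 0 passed 2-fold in either direction. TNNT1, the slow troponin T, had 630, 472 and 987 RPKM.

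Genes of developing muscle were mixed, and their sum was 2017, 2536 and 3799 RPKM at the 3 stages, most of it MYH8. Of 7 paired genes, 4 were at least 2-fold lower at day 240 and MYH3, embryonic myosin, was higher, with 37.3, 80.7 and 96.3 RPKM. ACTC1, the cardiac actin of immature fibres, had 84.9, 7.23 and 0.939 RPKM. The other lower genes, MYL4, CHRNA1 and NCAM1, had only 0.505, 0.911 and 1.42 RPKM at day 0. MYH8, neonatal myosin, had 1888, 2442 and 3695 RPKM. The myosin genes have near-identical copies, and how reads they share were counted is not stated, so the values of MYH3 and MYH8 are uncertain. Of 7 genes compared of the myogenic factors, MYF6 and MSTN were at least 2-fold higher and MYF5 lower. MSTN, which limits muscle growth, had 1.42, 1.38 and 5.20 RPKM. Of 7 paired genes of oxidative and fatty acid metabolism, 0 were higher and 3 lower, PDK4, HADHA and CPT1B. PDK4, an inhibitor of pyruvate oxidation, had 277, 94.2 and 7.27 RPKM. TRIM63 and FBXO32, ubiquitin ligases of muscle atrophy, were higher, 2 of 4 paired genes. Of 4 genes of proliferation compared, 3 were lower (CCNB1, MCM2 and MCM5, each under 0.25 RPKM at both stages). Of 3 handling and stress genes compared, 0 passed 2-fold. MYL4, CHRNA1, NCAM1, MYF5, CPT1B and MCM5 were named after their values were seen.

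Among the marker lists of other cell types, genes at least 2-fold higher at day 240 than at day 0 were found for cardiomyocytes only, MYH6 and MYBPC3, the latter with 0.0739, 0 and 0.405 RPKM. In bulk tissue, fewer cells of a type and less RNA per cell cannot be told apart. The marker values are also on the deposited scale, on which all Ensembl genes compared had a median difference of -0.648 (log2). The medians were -0.646 for endothelial, -0.713 for erythroid, -1.22 for adipocyte and -1.46 for fibroblast and matrix markers. The part of the scale in the lower values was not tested. Skeletal muscle fibre markers (5 of 10 paired) summed to 2986, 4138 and 4691 RPKM at the 3 stages, and 0 of them passed 2-fold. Fibroblast and matrix markers (6 of 8) summed to 128, 114 and 50.0 RPKM, with 4 lower, and adipocyte markers (6 of 10) to 2.86, 1.14 and 0.960 RPKM, with 4 lower. Endothelial markers (3 of 6) summed to 14.5, 10.05 and 8.25 RPKM and erythroid markers (3 of 5) to 20.5, 8.25 and 9.98 RPKM. Leukocyte markers (6 of 8) summed to 0.758, 1.72 and 0.977 RPKM, with CD4 at 0 at each stage. Cardiomyocyte markers (3 of 6) summed to 379, 378 and 769 RPKM, nearly all of it MYH6, a myosin with near-identical copies, while NPPB was at 0. Hepatocyte markers (6 of 6) summed to 0, 2.57 and 0.0562 RPKM in muscle, to 6496 RPKM in liver and to 383 RPKM in lung. The part of these cell types in the levels of the members was not tested.

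The values depend on how the libraries are put on 1 scale. With a scaling to the same median ratio over features above 0 in all libraries, the level of day 0 moved by -0.76 (log2) against day 240, that of day 30 by 0.12, that of ovary by -2.42 and that of the muscle mixture by -1.79. On this scale 117 lncRNAs met the rule, among them 92 of the 92 members, and muscle was the highest organ for 64.1% of the 117. Among others, TCONS_00534241, TCONS_00306897, TCONS_00556042, TCONS_00822253, TCONS_00492840 and TCONS_00299835 then had muscle as their highest organ. With a scaling to the same total, day 0 moved by 0.08 and day 30 by 0.68, and 90 of the 92 members met the rule with no further lncRNA. With this scaling, TCONS_00534241 was higher at day 30 than at day 240.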

How the data were processed

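The authors mapped reads with TopHat 1.3.2 and assembled transcripts with Cufflinks (names and version from the submitters' processing notes), filtered the assembly for lncRNAs, counted reads with htseq-count and deposited RPKM for 32420 features in each of 13 libraries. The genome build is not given in the sources used here. Members and gene lists were chosen with earlier results of these data known.

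Whole reads were recovered from the RPKM values as whole multiples of what 1 read is worth, taking for each feature the shortest length with which all its values came out whole. Such a length existed for all 22695 features seen in 4 or more libraries and all 6767 seen in 1 to 3. On simulated data, 13 of 13 library totals were recovered, as were the reads of 99.6% of 21897 features seen in 4 or more libraries and of 83.4% of 7152 seen in 1 to 3. Single-tissue libraries held 21685316 to 38581416 reads in RPKM, the tissue mixture 108337358. Counting intervals (exact Poisson for levels, exact conditional binomial for ratios) and the floor of 3 reads cover counting error only.

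Between libraries, lncRNAs or genes with at least 0.1 RPKM in either were compared on log2(RPKM + 0.1), with no test since there was 1 library per group. Named were the 10 highest members at day 240, the 6 largest rises, the 6 with the largest distance of muscle from other organs and at least 20 reads, the 4 with day 30 most above and the 4 most below day 240 (at least 20 reads at either stage), the highest member in each organ, the 3 with the largest mixture differences in each direction, the 2 nearest each threshold on either side, and up to 4 genes per list. The result of 1 further gene list is not reported here. Alternatives were other scalings, RPKM limits, ratios, read filters and pseudocounts, and 1 member per run of consecutive identifiers. Sequences and coordinates of the lncRNAs were not used here. Python 3.11.15 with numpy 2.4.6, pandas 2.3.3, scipy 1.17.1 and matplotlib 3.10.9 was used.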

Additional observations from a re-analysis of the deposited data

How the results depend on the processing

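The number of members was 37 with a limit of 1 RPKM at day 240 and 197 with a limit of 0.25 RPKM, and all other alternatives stayed within 1.5 times the 92. With the limit of 1 RPKM, 48.6% were highest in muscle, 29.7% were at least 4-fold over every other organ, 70.3% had at least 0.5 RPKM in the muscle mixture and 37.8% were at least 2-fold higher there. With the limit of 0.25 RPKM, the first 3 of these shares were 26.9%, 8.63% and 39.1%. With the median ratio scaling, 64.1% were highest in muscle and 23.9% had at least 0.5 RPKM in the muscle mixture. On that scale the difference of muscle from the highest other organ turned from -1.06 to 0.12 (log2) for TCONS_00534241 and from -2.25 to 0.11 for TCONS_00556042. With a pseudocount of 1, 13.04% were at least 2-fold above day 0 at day 30, 23.9% were at least 2-fold higher at day 240 than at day 30, 2.17% were at least 4-fold over every other organ and 9.78% at least 2-fold higher in the muscle mixture. By its construction, this pseudocount shrinks differences of low values. Of the other values, 42 stayed within the counting interval of the share reported, or within 1.5 times the number of members, among them the 7 with at least 10 reads at day 240. No members had consecutive identifier numbers, so taking 1 member per run could change nothing. However, 2 pairs of members lay within 30 numbers of each other, and whether all members are separate loci was not tested. Of the values of named members, 154 stayed within 2-fold, 36 moved further and the 2 given turned from beyond 2-fold. From under 2-fold, the organ difference also changed sign for TCONS_00306897 (-0.74 to 1.59), TCONS_00822253 (-0.19 to 1.47), TCONS_00492840 (-0.47 to 1.18) and TCONS_00299835 (-0.25 to 0.42) with the median ratio. With the same total, it did so for TCONS_00822253 (0.32) and TCONS_00492840 (0.04), as did day 240 minus day 30 of TCONS_00534241 (0.45 to -0.21). No paired analysis was possible because there was 1 library per stage or organ. At day 240, 29 of the 92 members had under 10 reads, and differences between animals cannot be seen.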
